A study of Mus musculus with 9 samples.

Results

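The miR-148 and miR-152 family was taken as every row whose name begins with miR-148a, miR-148b or miR-152. These were 6 of the 1251 mature miRNA strands in the small RNA sequencing, the 3p and the 5p strand of each of 3 precursors. All 6 passed the filter on low values, as did 343 of the 1251 strands. The samples were adipose depots of male C57BL/6J mice, which were 5 to 6 weeks old at the start, received a high fat diet (HFD, 45% of energy from fat) for 11 weeks and were fasted for 4 hours before collection. Interscapular brown adipose tissue (BAT), inguinal subcutaneous adipose tissue (SAT) and epididymal visceral adipose tissue (VAT) gave 3 libraries each, named here by their numbers as BAT 12, 15 and 20, SAT 14, 19 and 20, and VAT 14, 17 and 20. All 9 libraries came from HFD mice, so that the comparisons are between depots and not between diets.

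A miRNA precursor is cut into a duplex, and one strand is loaded onto an Argonaute protein. The loaded strand pairs with target mRNAs mainly through its seed, and strands with the same seed share many predicted targets. The 3p strands of miR-148a, miR-148b and miR-152 have one seed, and the mRNA of the DNA methyltransferase Dnmt1 is among their known targets. MiR-148a is abundant in liver, where it represses the LDL receptor, and it rises when preadipocytes become adipocytes.

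The mature sequences below, from RefSeq on GRCm38.p6, are shown because they set which members can act on the same sites and how far their reads can be told apart. The capitals mark the seed, bases 2 to 8 from the 5′ end.
miR-148a-3p: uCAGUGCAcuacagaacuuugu
miR-148b-3p: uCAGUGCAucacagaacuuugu
miR-152-3p: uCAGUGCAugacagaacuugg
miR-148a-5p: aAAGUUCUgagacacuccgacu
miR-148b-5p: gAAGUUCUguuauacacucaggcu
miR-152-5p: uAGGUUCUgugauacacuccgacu
The seed CAGUGCA belonged to these 3 strands and to no other mature strand in the RefSeq table. The 5p strands of miR-148a and miR-148b shared the seed AAGUUCU, and miR-152-5p had AGGUUCU. Counted from the 5′ end, miR-148a-3p and miR-148b-3p differed at C9U and U10C. MiR-152-3p differed from miR-148b-3p at C10G and U20G and was 21 rather than 22 bases long. All differences between the 3p strands therefore lie outside the seed. Reads that map to several places were shared in proportion by the authors. How many mismatches their mapping allowed is not given in the sources used here.

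The 3 precursors lie on different chromosomes. Mir148a (chromosome 6, 51269812 to 51269910, minus strand, GRCm38) overlapped no other gene in GENCODE release M21. Mir148b (chromosome 15, 103285125 to 103285221, plus strand) lay in an intron of each of the 4 Copz1 transcripts that span it. Mir152 (chromosome 11, 96850393 to 96850465, plus strand) lay in an intron of each of the 3 overlapping Copz2 transcripts. Copz1 and Copz2 are paralogs that encode the zeta subunits of the coatomer, a vesicle coat, and both are on the strand of their miRNA. The precursors of miR-148a and miR-152 are printed because their strands behaved differently, and the capitals mark the 5p and then the 3p strand.
Mir148a: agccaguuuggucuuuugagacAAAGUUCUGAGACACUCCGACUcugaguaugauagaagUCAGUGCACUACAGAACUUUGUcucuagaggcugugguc
Mir152: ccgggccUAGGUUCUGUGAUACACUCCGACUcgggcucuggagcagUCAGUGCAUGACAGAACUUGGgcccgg

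The deposited values are log2 levels, with 3.32 as the lowest value of every library, the log2 of 10. The files give no read depth for the single libraries, so the spread over the 3 libraries of a depot (SD) is the measure of error. From 255 to 273 strands were above the lowest value in the BAT libraries, 240 to 285 in SAT and 323 to 349 in VAT. Of 5 tested strands from a list of brown fat miRNAs, 4 were lower in VAT than in BAT and 4 lower in SAT than in BAT, against 26.8% and 18.1% of all tested strands. All 4 strands of a white fat list were higher in both, against 39.4% and 22.4%, and 2 of them were at the lowest value throughout BAT. Some libraries stood apart in other lists. The 6 skeletal muscle strands summed to a log2 level of 17.21 in BAT 15, 18.68 in BAT 20 and 17.21 in VAT 20, against 9.93 to 12.60 in the other libraries. The 6 epithelial strands summed to 14.35 in SAT 14 and 10.29 in VAT 20, against 5.91 to 7.12 elsewhere, and the 8 leukocyte strands to 16.79 in SAT 20, against 13.06 to 14.76 elsewhere.

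Every member had a higher mean in both white depots than in BAT. In VAT/BAT, 6 of the 6 members were higher in VAT at an adjusted p under 0.05 in limma's moderated test, adjusted over the 343 strands by Benjamini-Hochberg. The same was found for 39.4% of all tested strands. In SAT/BAT, 4 of the 6 were higher in SAT, against 22.4% of all tested strands. MiR-152-3p and miR-148b-5p were at the lowest value in all BAT libraries. They passed the filter through the white depots alone, which fixed their direction and, in VAT/BAT, their lack of overlap. The other 4 members were above the lowest value in every library, and each was called in VAT/BAT and 3 of them in SAT/BAT. The VAT libraries lay above the BAT libraries without overlap for 6 members, against 44.3% of all tested strands, and the SAT libraries for 5, against 31.5%. The members had a median log2 fold change of 2.20 (VAT/BAT) and 2.03 (SAT/BAT), whereas the median over all tested strands was 0.40 and 0.26. These counts and medians include the 2 members at the lowest value in BAT, and so are a description only. Both comparisons use the same 3 BAT libraries. With BAT 15, BAT 20 and VAT 20 left out, the libraries with a high muscle sum, 1 BAT library remained. The 4 members measured in every library then had log2 fold changes of 0.97 to 3.00 in VAT/BAT and 0.95 to 3.47 in SAT/BAT. With SAT 14, SAT 20 and VAT 20 left out, 1 SAT library remained. The changes of these 4 members then ran from 1.16 to 3.51 in VAT/BAT and from 1.05 to 4.16 in SAT/BAT. In bulk tissue, fewer cells that make a miRNA and less of it per cell cannot be told apart.

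**Figure D1:**
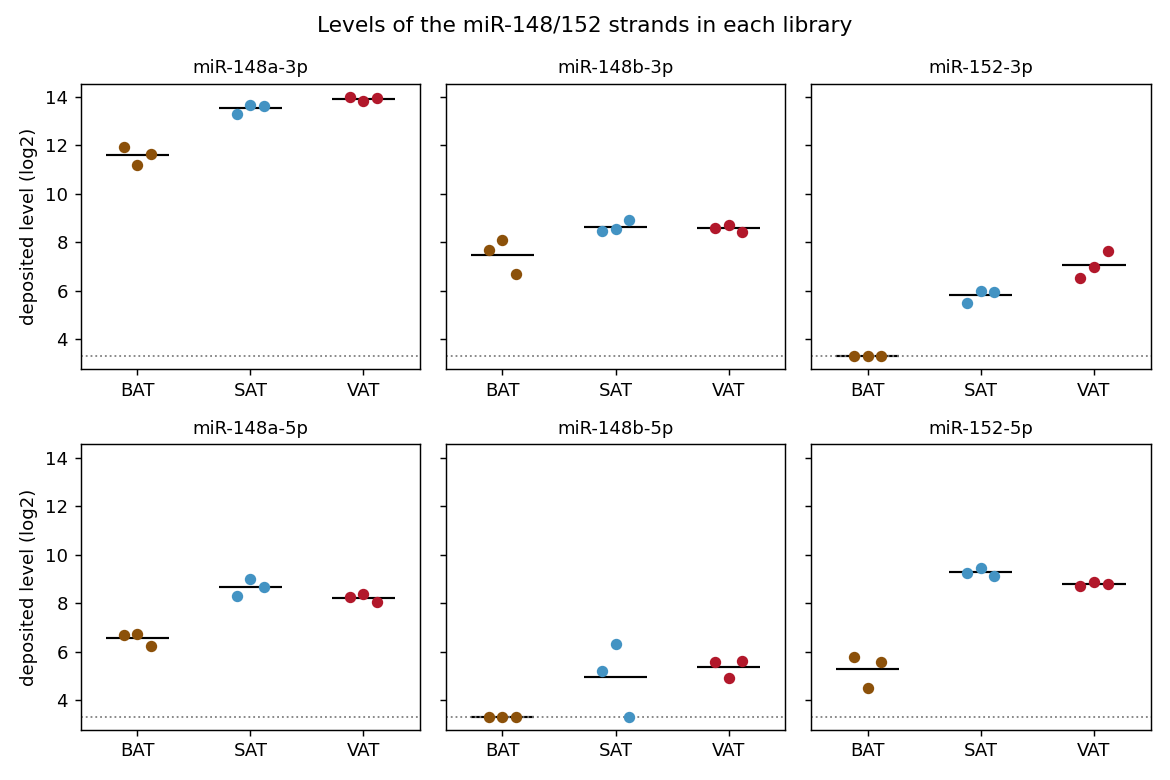
Deposited log2 level (vertical axis) of each member in the 9 libraries, by depot. Points are libraries, lines are depot means and the dotted line is the lowest value, 3.32. BAT lies below SAT and VAT for every member except miR-148b-5p, which SAT 20 also has at the lowest value.

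MiR-148a-3p was the most abundant member in every library. Its log2 level was 11.94, 11.18 and 11.65 in BAT 12, 15 and 20. In SAT 14, 19 and 20 it was 13.32, 13.69 and 13.63, and in VAT 14, 17 and 20 it was 14.02, 13.84 and 13.94. The 3 depots did not overlap, with BAT lowest and VAT highest. By level it ranked 54 to 68 of the 1251 strands in the BAT libraries, 31 to 36 in SAT and 27 to 29 in VAT. The depot means were 11.59 ± 0.38 for BAT, 13.55 ± 0.20 for SAT and 13.93 ± 0.09 for VAT (SD, n = 3 each). VAT exceeded BAT by 2.34 on the log2 scale in limma (standard error, SE, 0.27; adjusted p = 0.000596), a 5.08-fold difference. SAT exceeded BAT by 1.96 (SE 0.24, adjusted p = 0.00363), or 3.88-fold.

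MiR-148b-3p, which has the same seed, had smaller log2 differences from BAT than miR-148a-3p. The test over the 3 depots of the difference between these strands missed the threshold, as given with the other comparisons between 3p strands. Its log2 level was 7.70, 8.11 and 6.71 in BAT 12, 15 and 20. In SAT 14, 19 and 20 it was 8.45, 8.56 and 8.92, and in VAT 14, 17 and 20 it was 8.60, 8.74 and 8.43. BAT was below both white depots without overlap, and SAT and VAT overlapped. BAT also had the widest spread, at 7.50 ± 0.72 (SD, n = 3), against 8.65 ± 0.25 in SAT and 8.59 ± 0.15 in VAT (SD, n = 3 each). The log2 fold change in VAT/BAT was 1.09 (SE 0.39, adjusted p = 0.0469 in limma). In SAT/BAT it was 1.14 (SE 0.41, adjusted p = 0.0837), which missed the threshold, with a 95% interval of 0.08 to 2.20. Without BAT 20, which had the lowest level and the highest muscle sum, the difference was 0.69 for VAT/BAT and 0.74 for SAT/BAT on the log2 scale. The VAT/BAT difference was still called then (adjusted p = 0.0435 in limma), but it was not called under 10 other settings, leaving out BAT 12 or any 1 VAT library among them, and was called under 7.

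MiR-152-3p, the third strand with this seed, was at the lowest value in all 3 BAT libraries. Its log2 level was 5.51, 6.01 and 5.94 in SAT 14, 19 and 20 and 6.55, 7.00 and 7.65 in VAT 14, 17 and 20. The 3 depots did not overlap, in the order BAT, SAT, VAT. With the lowest value standing for BAT, miR-152-3p was at least 13.4-fold higher in VAT (adjusted p = 0.000283 in limma) and at least 5.65-fold higher in SAT (adjusted p = 0.000403). The filter fixed this direction, so that both p values are a description only. The size depends on the constant in the values. The log2 fold change in VAT/BAT was 1.81 with a further 40 added and 6.96 with the lowest value subtracted and 1 added, and it was called in both.

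Of the 5p strands, those of miR-148a and miR-152 were lower in BAT than in either white depot. MiR-148a-5p, the partner strand of miR-148a-3p, had log2 levels of 6.69, 6.75 and 6.23 in BAT 12, 15 and 20. SAT 14, 19 and 20 had 8.29, 9.01 and 8.68, and VAT 14, 17 and 20 had 8.25, 8.37 and 8.05. BAT lay below both white depots without overlap. VAT exceeded BAT by 1.67 on the log2 scale (SE 0.25, adjusted p = 0.00162 in limma), and SAT exceeded BAT by 2.11 (SE 0.25, adjusted p = 0.00349).

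MiR-152-5p had the widest range of the 6 members over the 9 libraries, 4.94 on the log2 scale in the values as deposited. The range of miR-152-3p, 4.33, is a lower limit because of its BAT libraries, and with the lowest value subtracted and 1 added miR-152-3p changed more in VAT/BAT (6.96 against 3.90). MiR-152-5p was 5.80, 4.51 and 5.57 in BAT 12, 15 and 20. In SAT 14, 19 and 20 it was 9.23, 9.45 and 9.14, and in VAT 14, 17 and 20 it was 8.73, 8.88 and 8.79. The depots did not overlap, with SAT highest, unlike miR-152-3p. The log2 fold change was 3.98 in SAT/BAT (SE 0.38, adjusted p = 0.00167 in limma), a 15.8-fold difference. In VAT/BAT it was 3.50 (SE 0.38, adjusted p = 0.000479), or 11.3-fold. By the size of the log2 fold change it ranked 31 of the 343 strands in SAT/BAT and 45 in VAT/BAT.

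MiR-148b-5p was the scarcest member. The 3 BAT libraries and SAT 20 had it at the lowest value. Otherwise it was at 5.22 and 6.32 in SAT 14 and 19, and at 5.60, 4.91 and 5.64 in VAT 14, 17 and 20. VAT lay above BAT, by at least 4.16-fold (adjusted p = 0.00103 in limma). The filter fixed the direction of any difference from BAT, so that the p values against BAT are a description only. With a further 40 added to the values VAT exceeded BAT by 0.72 on the log2 scale, and with the lowest value subtracted and 1 added it was 5.01. In SAT/BAT it was not called (adjusted p = 0.166), and without SAT 20, the library with the highest leukocyte sum, the log2 fold change rose from 1.63 to 2.45 with an adjusted p of 0.0199.

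In the moderated F test of limma over the 3 depots, all 6 members passed an adjusted p of 0.05, as did 65.9% of the tested strands. The adjusted p was 5.94e-05 for miR-152-5p, 6.63e-05 for miR-152-3p, 0.000184 for miR-148a-3p and 0.000467 for miR-148a-5p. It was 0.0341 for miR-148b-3p and 0.0483 for miR-148b-5p. For miR-152-3p and miR-148b-5p it rests on the lowest value in BAT. Both miR-148b values rose above 0.05 under several alternatives.

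**Figure D2:**
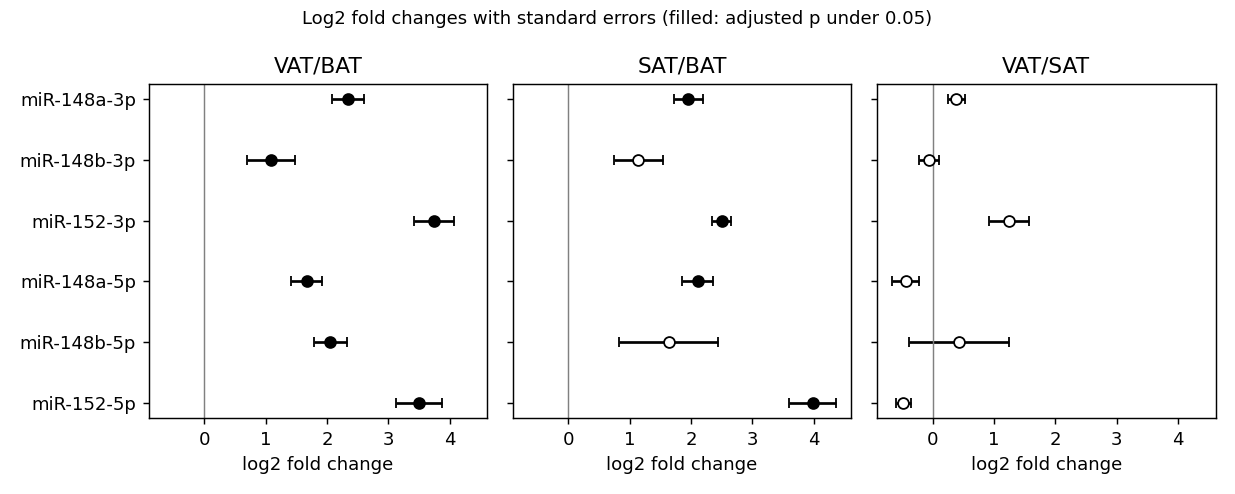
Log2 fold change (horizontal axis) of each member in VAT/BAT, SAT/BAT and VAT/SAT from limma. Bars are standard errors and filled points have an adjusted p under 0.05, which holds for 6 members in VAT/BAT, 4 in SAT/BAT and none in VAT/SAT.

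Between the white depots, no member passed the adjusted threshold in limma, where 16% of the tested strands did (8.45% higher and 7.58% lower in VAT). At an unadjusted p under 0.05 were 3 of the 6, miR-152-5p, miR-152-3p and miR-148a-3p, against 35.9% of all tested strands, and the test without moderation also called none after adjustment. The log2 fold change in VAT/SAT was 1.25 for miR-152-3p (SE 0.33, adjusted p = 0.0646) and 0.39 for miR-148a-3p (SE 0.13, adjusted p = 0.114). It was -0.47 for miR-152-5p (SE 0.12, adjusted p = 0.0569) and -0.44 for miR-148a-5p (SE 0.22, adjusted p = 0.216). For miR-148b-3p it was -0.06, with a 95% interval of -0.48 to 0.37. The SAT and VAT libraries did not overlap for miR-148a-3p, miR-152-3p and miR-152-5p, 3 of the 6 members, against 39.4% of all tested strands. In a fit of all 9 libraries miR-152-3p passed (adjusted p = 0.0431), and with a further 40 added miR-152-5p passed (adjusted p = 0.0483).

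The 3p and 5p strands of a precursor were then compared within each library, where a scaling factor of the library cancels. A constant added to the values does not cancel, and neither would quantile normalization, if the deposited values had it. For miR-148a the 3p strand was above the 5p strand by 5.25, 4.42 and 5.42 on the log2 scale in BAT 12, 15 and 20, by 5.02, 4.68 and 4.95 in SAT 14, 19 and 20, and by 5.76, 5.46 and 5.89 in VAT 14, 17 and 20. VAT lay above both other depots. The mean difference was 0.82 larger in VAT than in SAT, and the two-sided exact permutation test gave p = 0.1, which 3 libraries against 3 cannot go below. Over the 3 depots the exact permutation p was 0.0786 (all assignments of the 9 libraries), or 0.0943 after Benjamini-Hochberg adjustment over the 6 within-library measures.

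MiR-152 was the reverse, with the 5p strand above the 3p strand in all 9 libraries. The 3p level minus the 5p level was -3.72, -3.45 and -3.19 in SAT 14, 19 and 20 and -2.17, -1.88 and -1.14 in VAT 14, 17 and 20. In BAT, where the 3p strand was at the lowest value, it was at most -2.48, -1.19 and -2.25 in BAT 12, 15 and 20. SAT and VAT did not overlap, and the mean difference between them was 1.72 (exact permutation p = 0.1, two-sided, the smallest possible). Over the 3 depots the exact permutation p was 0.0179 (adjusted 0.0357), with the upper limits in BAT taken as measured values, so that this p rests on the lowest value. That adjusted p rose above 0.05 in 7 of 9 leave-one-out fits and with quantile normalization (0.0571).

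**Figure D3:**
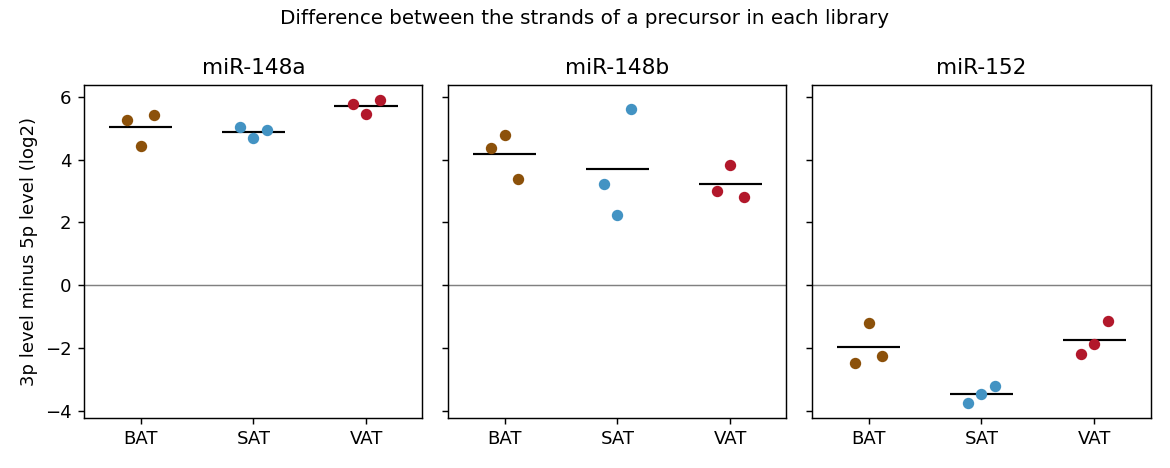
The 3p level minus the 5p level (log2, vertical axis) of each precursor in the 9 libraries. Points are libraries and lines are depot means. The values of miR-152 are below 0 in every library, and in BAT they are upper limits. Those of miR-148b in BAT and SAT 20 are lower limits, because the 5p strand is at the lowest value there.

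For miR-148b the 3p strand was above the 5p strand by 3.23 and 2.24 in SAT 14 and 19 and by 3.00, 3.83 and 2.80 in VAT 14, 17 and 20. In the 4 libraries with the 5p strand at the lowest value, the difference was at least 3.39. With those limits taken as measured values, the exact permutation p over the depots was 0.596, and with the lowest value subtracted and 1 added it was 0.186. As 4 of the 9 values are limits, neither shows whether the depots differ. Both strands were tested for 84 precursor names. The 3p strand was above the 5p strand in all 9 libraries for 26 of them and the 5p strand above the 3p strand for 29, miR-152 included. The difference was higher in VAT than in SAT without overlap for miR-148a and miR-152, and for 22.6% of the 84 pairs. The median change from SAT to VAT over the 84 pairs was 0.10. By this change miR-152 ranked 9, miR-148a 24 and miR-148b 60, from the largest rise.

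**Figure D4:**
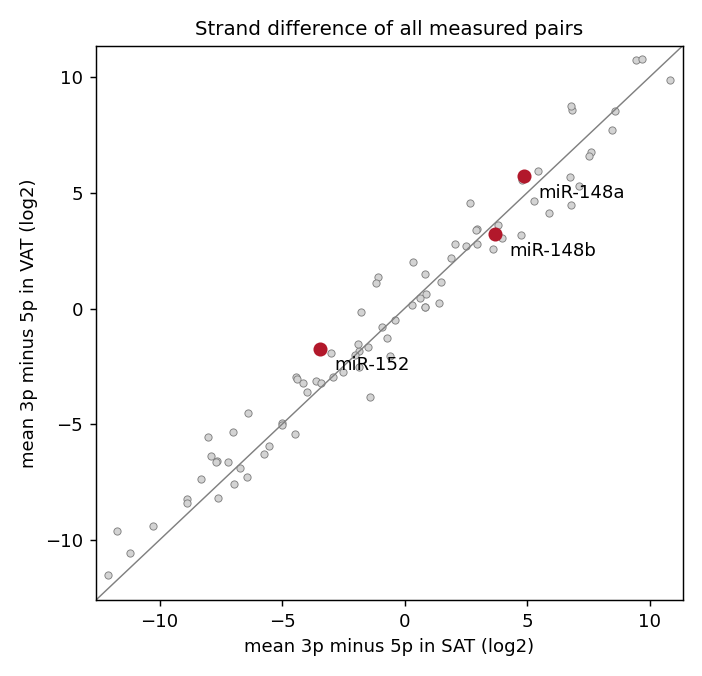
Mean 3p level minus mean 5p level (log2) in SAT (horizontal axis) and VAT (vertical axis) for the 84 precursor names with both strands tested. The family is in red and the line marks equal values. MiR-148a and miR-152 lie above the line, by 0.82 and 1.72, and miR-148b lies below it.

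The 3 strands with the seed CAGUGCA were also compared with one another. MiR-148a-3p exceeded miR-148b-3p by 4.24, 3.07 and 4.94 in BAT 12, 15 and 20, by 4.87, 5.13 and 4.71 in SAT 14, 19 and 20, and by 5.42, 5.10 and 5.51 in VAT 14, 17 and 20. BAT and SAT overlapped, and VAT lay above BAT. The mean difference was 1.26 larger in VAT than in BAT (exact permutation p = 0.1, two-sided, the smallest possible). In SAT it was 0.82 larger than in BAT (exact permutation p = 0.3). Over the 3 depots the exact permutation p was 0.0536 (adjusted 0.0804). MiR-148b-3p exceeded miR-152-3p by 2.94, 2.55 and 2.98 in SAT 14, 19 and 20 and by 2.05, 1.74 and 0.78 in VAT 14, 17 and 20. In BAT it exceeded it by at least 3.39 to 4.78. The 3 depots did not overlap (exact permutation p = 0.00357, the smallest that 9 libraries in 3 depots allow, adjusted 0.0107). MiR-148a-3p exceeded miR-152-3p by at least 7.85 to 8.61 in BAT, by 7.68 to 7.81 in SAT and by 6.29 to 7.46 in VAT (exact permutation p = 0.00357, adjusted 0.0107). Both differences with miR-152-3p rest on its lowest value in BAT and missed 0.05 after adjustment with a further 40 added. With that constant the difference between miR-148a-3p and miR-152-3p was larger in VAT than in BAT, the opposite direction. The adjusted p also reached 0.0643 and 0.0786 when 1 library was left out. Between SAT and VAT, where no value is at the lowest, the libraries did not overlap in either (exact permutation p = 0.1 each, the smallest possible).

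Summed without logs, the 3 strands with this seed reached 2600 to 4135 in BAT, 10615 to 13638 in SAT and 15205 to 17048 in VAT. The depots did not overlap. The log2 sum averaged 11.69 ± 0.34 for BAT, 13.60 ± 0.20 for SAT and 13.98 ± 0.08 for VAT (SD, n = 3 each). The sum was thus 4.90-fold higher in VAT and 3.77-fold higher in SAT than in BAT, and 1.30-fold higher in VAT than in SAT. MiR-148a-3p made up 89.0% to 96.6% of the sum in BAT, 95.9% to 96.8% in SAT and 96.3% to 97.2% in VAT. The lowest share, 89.0%, was in BAT 15, where miR-148b-3p held 10.6%. MiR-152-3p held 0.429% to 0.471% in SAT and 0.550% to 1.23% in VAT, and at most 0.385% in BAT. The 3 strands are 21 or 22 bases long, so that length hardly enters this comparison.

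**Figure D5:**
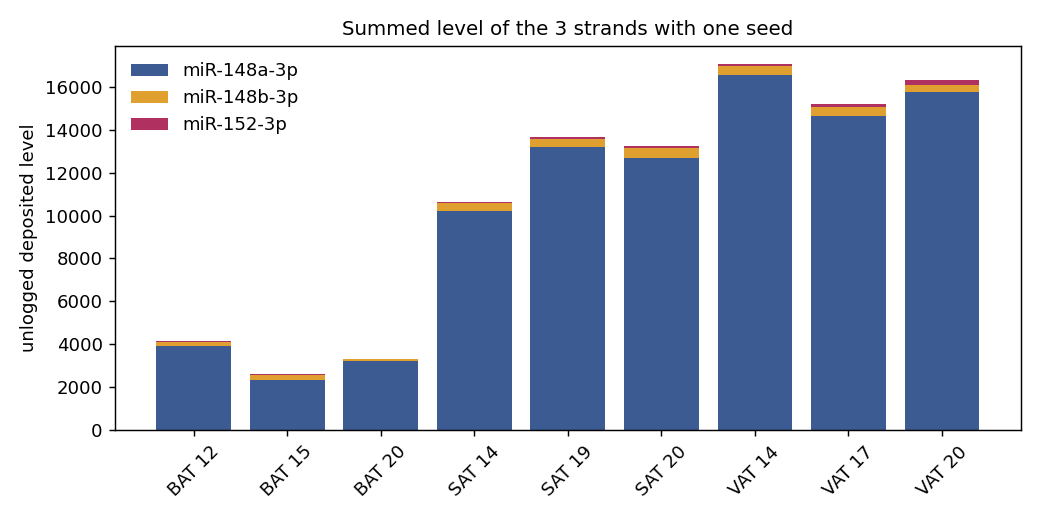
Unlogged deposited level (vertical axis) of miR-148a-3p, miR-148b-3p and miR-152-3p, stacked for each of the 9 libraries. The sum is at most 4135 in BAT and at least 10615 in SAT and VAT, and nearly all of it is miR-148a-3p.

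Other strands followed the 3p members closely over the 9 libraries. The likeness is a description only, since the libraries fall into depots and share some of their values. Pearson's r with miR-148a-3p (n = 9) was 0.983 for miR-21a-5p, 0.979 for miR-99a-3p and 0.978 for miR-223-3p, a miRNA of myeloid cells. With miR-148b-3p it was 0.960 for miR-324-5p, 0.960 for miR-25-3p and 0.957 for miR-23b-3p. With miR-152-3p it was 0.971 for miR-99a-3p and 0.969 for miR-199a-3p and miR-199b-3p, whose deposited values were the same. MiR-99a-3p and miR-223-3p, like miR-152-3p, were at the lowest value in all 3 BAT libraries, so that their r rests partly on it. The log2 level of miR-21a-5p ranged from 8.65 to 10.29 in BAT, 12.65 to 13.09 in SAT and 13.32 to 14.02 in VAT.

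Lists of other miRNAs were read beside the family. The shares of all tested strands called higher and lower were 39.4% and 26.8% in VAT/BAT. They were 22.4% and 18.1% in SAT/BAT, and 8.45% and 7.58% in VAT/SAT. Of 12 miRNAs known to favour adipogenesis, 5 were higher and 3 lower in VAT/BAT at an adjusted p under 0.05 in limma, with 5 and 2 for SAT/BAT and 2 and 2 for VAT/SAT. Among them were miR-21a-5p, 4.09 higher in VAT than in BAT on the log2 scale (SE 0.48), and miR-143-3p, 2.43 higher (SE 0.24). MiR-378a-3p, encoded in Ppargc1b, was lower in VAT, at -2.32 (SE 0.46). Of 11 miRNAs known to restrain adipogenesis, 10 were tested, of which 8 were higher and 1 lower in VAT/BAT, with 5 and 0 for SAT/BAT and 3 and 1 for VAT/SAT. MiR-130a-3p, which represses Pparg, was 2.80 higher in VAT than in BAT (SE 0.29). Of the 3 miR-29 strands, which target the methyltransferases Dnmt3a and Dnmt3b, 2 were higher in VAT/BAT, 1 in SAT/BAT and none in VAT/SAT, and miR-29c-3p had 3.57 in VAT/BAT (SE 0.73). MiR-29b-3p, called higher in VAT/BAT and SAT/BAT, was at the lowest value throughout BAT. So were 1 of the 12 miRNAs that favour adipogenesis and 3 of the 11 that restrain it. The lowest value held throughout SAT for 1 of the 12 and 1 of the 11, and throughout VAT for 1 of the 11. A strand at the lowest value throughout a depot cannot be lower in another, so that these counts are a description only.

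Among markers of other cell types, the fibroblast, endothelial, red cell and epithelial sums were above BAT in every SAT and VAT library, the last with BAT at the lowest value, and the leukocyte and muscle sums overlapped between BAT and both white depots. The 4 fibroblast strands summed to a log2 level of 11.23 to 11.58 in BAT, 12.81 to 13.01 in SAT and 13.40 to 13.69 in VAT. Of these, 3 were higher in VAT/BAT, 3 in SAT/BAT and 1 in VAT/SAT, and none was at the lowest value throughout a depot. Of all tested strands, 39.4% were called higher in VAT/BAT, 22.4% in SAT/BAT and 8.45% in VAT/SAT, and 26.8% were lower in VAT/BAT. The 2 endothelial strands, both of miR-126, summed to 11.53 to 12.23 in BAT, 13.28 to 13.61 in SAT and 13.54 to 13.64 in VAT, and both were higher in VAT/BAT and SAT/BAT. Of the 8 leukocyte strands 7 were tested, with 6 higher and 1 lower in VAT/BAT, 1 higher in SAT/BAT and 2 higher in VAT/SAT. Their sum was 14.32 to 14.76 in BAT, 13.71 to 16.79 in SAT and 13.06 to 14.34 in VAT, and 5 of the 8, miR-223-3p included, were at the lowest value throughout BAT. MiR-223-3p was the strand called in SAT/BAT. MiR-511-3p, 1 of the 2 called in VAT/SAT, was at the lowest value throughout both BAT and SAT. The direction of such calls was fixed, so that the leukocyte counts are a description only. The red cell strand miR-451a was higher in VAT/BAT and VAT/SAT, and the sum of both red cell strands was 8.85 to 9.73 in BAT, 9.94 to 10.39 in SAT and 11.18 to 11.81 in VAT. The fibroblast and red cell sums were both in the depot order of the miR-148a-3p levels, without overlap. No tested muscle (3) or epithelial (2) strand passed the threshold in any comparison, and the 6 epithelial strands were at that value throughout BAT. The part of these cell types in the family's levels was not tested.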

How the data were processed

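The small RNA libraries were 3 of BAT, 3 of SAT and 3 of VAT. The authors scaled each library by its usable reads, with a constant of 40 counts put in according to their methods, and took only reads that fell on mature strands of miRBase precursors. A read with more than one place was split between them. The labels name build mm10. The deposited values are log2 levels, although the methods speak of RPKM. The lowest is the log2 of 10, not 40. Libraries share values, which quantile normalization can leave, but not at every rank. At rank 191, miR-148a-5p was 6.69 in BAT 12 and 6.75 in BAT 15. The files give no depth for single libraries, so no counting error is given. Replicates are called biological, and the labels do not tie libraries to mice.

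Of 1251 strands, 343 exceeded the lowest value in 3 or more of the 9 libraries and were tested. Each pair of depots was fitted on its 6 libraries with limma 3.58.1 in R 4.3.3 (lmFit, eBayes, two-sided, no block), with Benjamini-Hochberg adjustment over all tested strands, and an F test used all 9. The methods describe an unmoderated test per miRNA, which served as an alternative. Differences within a library were tested by exact permutation of the depots in Python 3.11.15. The code was tested on simulated data. The summed level was not tested, since it is a score over the members. The text names all 6 family strands, the 3 other tested strands with the highest Pearson's r for each 3p member and, from 11 lists, counts with at most 4 examples a list, drawn from the largest changes among those called. MiR-126 stands in the table under its older name. The members and lists were chosen with earlier results of these data known. Sequences are from RefSeq and positions from RefSeq and GENCODE M21, both on GRCm38. The mRNA sequencing was not used here.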

Additional observations from a re-analysis of the deposited data

How the results depend on the processing

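MiR-148a-3p, miR-148a-5p, miR-152-3p and miR-152-5p kept their calls in VAT/BAT, SAT/BAT and the F test under every alternative run, and miR-148b-5p kept its call in VAT/BAT under all but 1 of them, given below. For miR-152-3p and miR-148b-5p, at the lowest value throughout BAT, the filter fixed the direction, so that their kept calls are a description only. MiR-191-5p had the same mean, 15.92, in BAT and VAT. Levels relative to it therefore left every VAT/BAT log2 fold change as it was, and only the errors could differ. MiR-148b-3p lost its call in VAT/BAT without a filter (1.09), when 1 replaced the lowest value (1.13), with quantile normalization (1.09), without moderation (1.09) and with a replicate block by order number (1.09, adjusted p = 0.0508), and its leave-one-out log2 fold changes ran from 0.69 to 1.39. It gained a call in SAT/BAT, at 1.14, among strands above the median mean and with all 9 libraries in 1 fit. Its leave-one-out values there ran from 0.74 to 1.44, and those of miR-148b-5p from 0.95 to 2.45. In VAT/SAT, miR-148b-3p changed sign relative to miR-191-5p (0.12), and its leave-one-out values ran from -0.15 to 0.083, above 0 without SAT 20 (0.083) or VAT 20 (0.022). Those of miR-148b-5p ran from -0.39 to 1.11. MiR-152-3p was called in VAT/SAT with all 9 libraries in 1 fit (1.25) and miR-152-5p with a further 40 added (-0.44), so that 1 member was called under either. Adjusted p values of the F test for miR-148b-3p were 0.196 without a filter, 0.0557 with the order block and 0.0143 to 0.0688 leaving out 1 library. For miR-148b-5p they were 0.108 with a further 40 added, 0.351 without a filter, 0.0613 with quantile normalization, 0.104 relative to miR-191-5p, 0.0698 with the order block and 0.00196 to 0.116 leaving out 1 library. The cause was not tested.

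The exact permutation p of the difference between the miR-148a strands was 0.0214 with a further 40 added and 0.00714 to 0.186 leaving out 1 library. For the miR-152 strands it was 0.0286 with quantile normalization and 0.00714 to 0.0607. For miR-148a-3p minus miR-148b-3p it was 0.00714 with 40 added and 0.00714 to 0.129. For miR-148a-3p minus miR-152-3p it was 0.0464 with 40 added, where the difference between VAT and BAT changed sign, and 0.00357 to 0.0393. For miR-148b-3p minus miR-152-3p it was 0.0964 with 40 added and 0.00357 to 0.0107. The summed level of the 3p strands in VAT/SAT rose from 0.38 to 0.55 relative to miR-191-5p.

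Leaving out the libraries that stood apart was chosen after seeing the data, with the rest in 1 fit. Without BAT 15, BAT 20 and VAT 20, which leaves 1 BAT library that is assumed to vary like the others, miR-148b-5p was not called in VAT/BAT (1.93), miR-148b-3p was called in SAT/BAT (0.95) and changed sign to 0.022 in VAT/SAT, and the F test gave 0.0641 for miR-148b-3p and 0.510 for miR-148b-5p. Without SAT 14, SAT 20 and VAT 20, which leaves 1 SAT library, miR-148b-3p was not called in VAT/BAT (1.16) and was 0.11 in VAT/SAT, miR-148b-5p was called in SAT/BAT (2.99) and was -1.07 in VAT/SAT, and the F test gave 0.174 for miR-148b-3p. MiR-152-3p and miR-148b-5p were not among the strands above the median mean, so that setting gave no value for them.

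The library numbers 14 and 20 are shared by SAT and VAT, and 20 by BAT too. With them as a replicate block the within-block correlation was 0.0102 in VAT/SAT and 0.0379 in the F test, and no call on the members changed. After subtracting depot means, same-numbered libraries correlated at -0.14 to 0.27 (4 pairs) and libraries of the same order number at -0.17 to 0.36 (9 pairs). With so few libraries a depot, these values cannot show whether either number pairs the samples. Of all tested strands, 55 were called in VAT/SAT, against 2 relative to miR-191-5p, 4 without a filter, 13 without moderation, 30 with all 9 libraries in 1 fit and, with limma, 0 with the order number as a replicate block or without SAT 19, where 105 and 104 had an unadjusted p under 0.05. Without a filter 128 were called in VAT/BAT (227 otherwise), 74 in SAT/BAT (139) and 143 by the F test (226).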
